A study of Mus musculus with 9 samples.

Results

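The glycolipid-reactive T lymphocytes called invariant natural killer T (iNKT) cells see their antigens on CD1d, and those of the iNKT1 type depend on the transcription factor T-bet and make interferon-gamma. The 10 genes described here are the ligand Tgfb1, the receptors Tgfbr1 and Tgfbr2, the signal carriers Smad2, Smad3 and Smad4, and the inhibitors and feedback targets Smad7, Ski, Skil and Pmepa1. They were found by symbol among 14004 genes of the deposited table, and all 10 passed the filter on low values that left 13309 genes for testing. The genes were selected on what they do in the TGF-beta pathway, with the measured values of these libraries already known, above all the difference of Pmepa1 between thymus and the other tissues. Their differences from thymus are therefore a description, and the adjusted p-values beside them are given as part of the fit over all genes and not as independent evidence.

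The study sequenced iNKT1 RNA of C57BL/6 mice in 9 libraries, of which 3 came from thymus, 3 from liver and 3 from spleen. Every group had the genotype Tbx21CreTg;Rosa26-LSL-YFP+/+ and no treatment. The Cre recombinase is driven by Tbx21, the gene of T-bet, and the reporter becomes active where Cre has acted, so the 3 groups share both transgenes. The labels name neither the age of the mice nor how many mice gave a library, and the p-values measure only the spread between these libraries, which may be technical.

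Reads recovered from the deposited normalised read counts numbered 3877779 in liver replicate 3 and 18506598 to 39568081 in the other 8 libraries. All 9 genes listed as markers of iNKT1 cells, among them Tbx21, had reads in every library. Some of them, such as Cd3e and Zbtb16, are not particular to iNKT1 cells. The 9 genes summed to 101264 to 124982 in thymus, 133539 to 153746 in liver and 90575 to 109019 in spleen, mostly from Cd3e and Il2rb. Ifng was at 24.3 in thymus replicate 2 and at 1082 or more in the other 8 libraries. Alb, an abundant hepatocyte transcript, had a value of 1172 to 1588 in the liver libraries and at most 268 elsewhere. The 3 libraries numbered 2 stood apart in Xist, with at least 84543 against at most 16531 in the other 6. Leaving them out, with 2 libraries per tissue, ended the only call that limma made on the 10 genes, that of Pmepa1 in spleen against thymus, whose log2 fold change went from -6.71 to -5.51.

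TGF-beta is secreted in a latent form and, once released, binds a type II receptor that phosphorylates a type I receptor. The type I receptor phosphorylates SMAD2 and SMAD3 at their C-terminal serines, and these enter the nucleus with SMAD4 and change the transcription of their targets. Some of these targets damp the signal. SMAD7 competes at the receptor and brings ubiquitin ligases to it, and PMEPA1 binds SMAD2 and SMAD3 and keeps them from the receptor. SnoN (the product of Skil), also a target, and the related SKI repress SMAD-bound genes. TGF-beta signalling is known for its part in the development of iNKT cells and for inducing Itgae, the CD103 chain of an integrin that binds E-cadherin, in tissue T cells.

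Pmepa1 had the largest fold differences from thymus among the 10 genes, so the coding stretches of its known interaction motifs are shown, with the C-terminal end of SMAD3 that the receptor phosphorylates. Each is a stretch of 48 coding bases of the GENCODE transcript on GRCm38, 5′ to 3′ on the gene's strand, with the motif's codons in capitals. The first is in exon 4 of Pmepa1 at chr2:173228170-173228217 on the minus strand and holds the first PPxY motif, which ubiquitin ligases of the NEDD4 family bind. The second, at chr2:173228086-173228133 in the same exon, holds the PPNR motif through which PMEPA1 binds SMAD2 and SMAD3. The third, at chr2:173227957-173228004, holds the other PPxY motif. The last is in exon 9 of Smad3 at chr9:63650265-63650312 on the minus strand and ends in the codons of the SSxS tail that the receptor phosphorylates.
Pmepa1 first PPxY: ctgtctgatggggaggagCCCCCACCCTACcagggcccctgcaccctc
Pmepa1 PPNR: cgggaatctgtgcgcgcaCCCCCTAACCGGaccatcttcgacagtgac
Pmepa1 second PPxY: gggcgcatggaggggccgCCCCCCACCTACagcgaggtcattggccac
Smad3 SSxS: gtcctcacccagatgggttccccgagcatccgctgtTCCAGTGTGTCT

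The ligand, the receptors and the SMADs were read in all 9 libraries, while Pmepa1 was high in thymus and near the floor in liver and spleen. No member was higher in liver or in spleen than in thymus in every library, and Pmepa1 alone passed the test, in spleen against thymus. All values are the authors' normalised read counts unless a value per kilobase of exon is named, and fold changes come from limma on log2(value + 1). No other annotated gene shares exon bases with any of the 10.

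**Figure D1:**
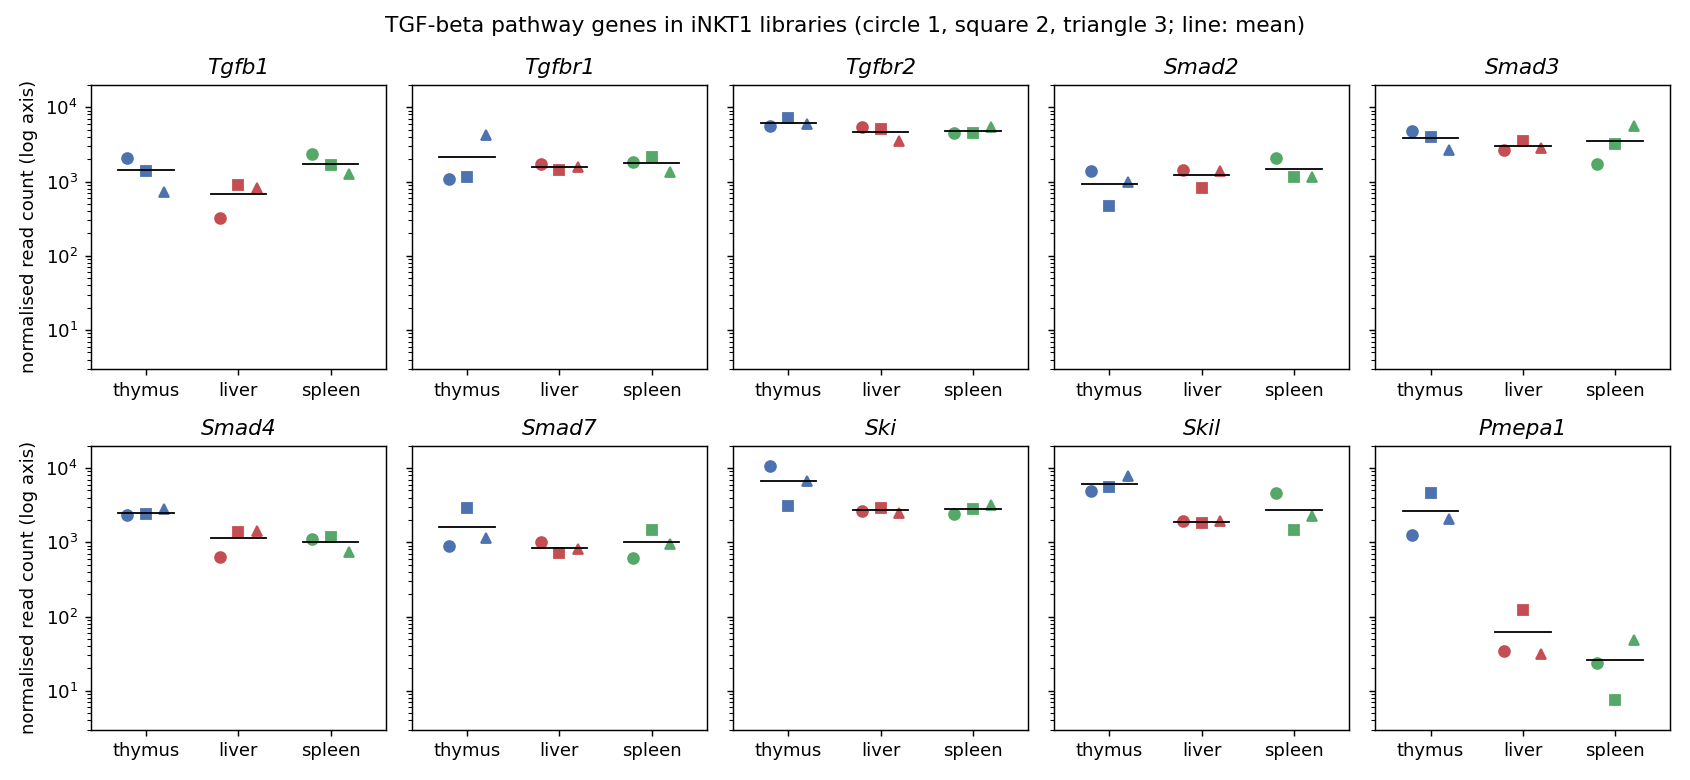
Normalised read count (log axis) of the 10 genes in each library, with circles, squares and triangles for replicates 1, 2 and 3 of thymus (blue), liver (red) and spleen (green) and a line at the mean. Pmepa1 lies between 1245 and 4652 in thymus and between 7.51 and 123 in the other 6 libraries.

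Pmepa1 (ENSMUSG00000038400, chr2:173224458-173276533, minus strand) encodes the membrane protein that sequesters SMAD2 and SMAD3. It had normalised read counts of 1245, 4652 and 2029 in thymus replicates 1, 2 and 3. In the liver libraries the values were 33.9, 123 and 31.3, and in the spleen libraries 23.8, 7.51 and 47.9. The lowest thymus library was thus about 10.2 times the highest library of the other tissues, and liver and spleen overlapped. The means were 2642 ± 1784 in thymus, 62.6 ± 52.0 in liver and 26.4 ± 20.3 in spleen (SD, n = 3), a 42.2-fold and a 100-fold difference from thymus. The depth behind the low values was 39, 143 and 5 recovered reads in liver and 32, 11 and 80 in spleen, against 1111, 4023 and 1621 in thymus. In bulk RNA, fewer cells with the transcript and less transcript per cell cannot be told apart.

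The log2 fold change of Pmepa1 was -6.71 (SE 1.25, limma adjusted p = 0.0270) in spleen against thymus and -5.45 (SE 1.25, adjusted p = 0.101) in liver against thymus, and both comparisons use the same thymus libraries. Only the first passed the threshold of 0.05. The call in spleen was lost without thymus replicate 2 (adjusted p = 0.0906), liver replicate 2 (0.0503), or spleen replicate 1, 2 or 3 (0.0880, 0.108 and 0.0818). With the libraries numbered 1 and 3 alone its adjusted p was 0.404 at a log2 fold change of -5.51. Over all 17 alternatives the log2 fold change in spleen ran from -7.29 to -5.51 and the adjusted p from 7.96e-14 to 0.404. Liver against spleen gave 1.25 (SE 1.25, adjusted p = 0.9999), with overlapping values.

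**Figure D2:**
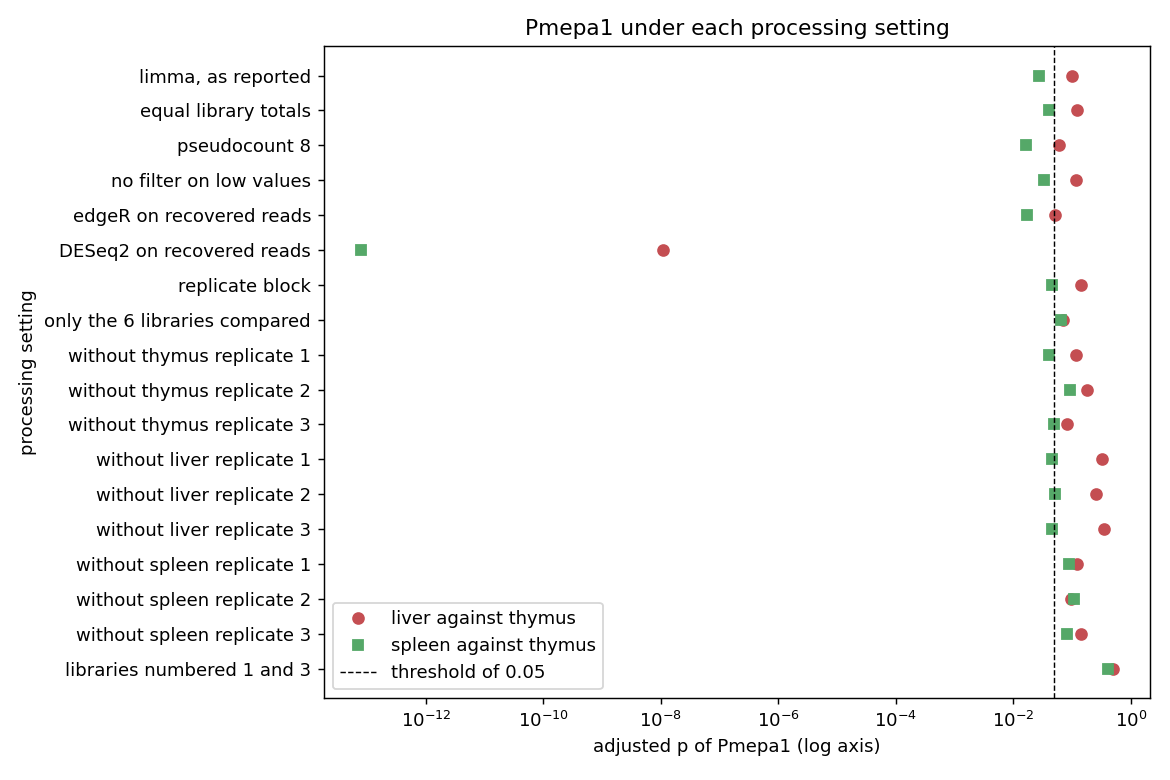
Adjusted p of Pmepa1 (log axis) under limma as reported and under the 17 other processing settings, for liver against thymus (circles) and spleen against thymus (squares), with the threshold of 0.05 dashed. Spleen against thymus passes in 10 of 17 alternatives and liver against thymus in 1, DESeq2.

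Levels of marker genes of other cells stand beside these values, and their part in the Pmepa1 difference was not tested. Of 6 markers of immature thymocytes 4 were in the table, and their summed level was 16.9, 0.106 and 783 in thymus replicates 1, 2 and 3, 88.1 to 1157 in liver and 0 to 26.3 in spleen. Rag1, one of them, had no recovered read in thymus replicates 1 and 2 and a value of 486 in replicate 3. Cd8a made up most of the sum in liver, at 1116.5, 145.9 and 85.8 in replicates 1, 2 and 3. In the same libraries Rag1 was at most 0.8 and Dntt at most 0.6. The 4 markers of iNKT2 cells, all in the table, summed to 4062, 7175 and 4955 in thymus replicates 1, 2 and 3. That is the order of Pmepa1, which Gata3, at 1846, 6351 and 3358, and Il13 also had. Il17rb, at 1772, 50.9 and 674, had the opposite order, and Il4 was lowest in replicate 2. The 4 markers summed to 3129 to 5144 in liver and to 5279 to 7778 in spleen. The 5 B cell markers summed to 3157 to 5351 in thymus, 5470 to 8085 in liver and 5260 to 11124 in spleen, and in thymus all but Ighm were without a recovered read. The 5 myeloid markers summed to 10.6 to 315 in thymus, 25.6 to 1298 in liver and 56.3 to 3040 in spleen. Col1a1, the 1 stromal marker of 5 in the table, was at most 1.19 in thymus and at most 64.9 in spleen. Pecam1, the 1 endothelial marker of 4 in the table, was 71.7 to 302 in thymus, 458 to 671 in liver and 394 to 1335 in spleen.

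Skil (ENSMUSG00000027660, chr3:31095058-31122577, plus strand) encodes SnoN, a SMAD corepressor that TGF-beta itself induces. Its values were 4944, 5534 and 7899 in thymus, 1956, 1808 and 1927 in liver and 4555, 1467 and 2270 in spleen. Thymus was above both tissues in every library, the liver values lay close together, and spleen replicate 1 came near the lowest thymus library. The log2 fold change was -1.66 (SE 0.41, adjusted p = 0.138) in liver, a 3.23-fold lower mean, and -1.28 (SE 0.41, adjusted p = 0.239) in spleen. Neither passed the test.

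Ski (ENSMUSG00000029050, chr4:155154075-155222592, minus strand), the related corepressor, had values of 10627, 3113 and 6636 in thymus. It was at 2679, 2907 and 2484 in liver and at 2380, 2836 and 3227 in spleen. The 6 peripheral libraries lay within a narrow range, while the thymus libraries were spread widely, and thymus replicate 2 sat just above liver and inside spleen. The log2 fold change was -1.17 (SE 0.40, adjusted p = 0.287) in liver against thymus, where the values did not overlap as deposited but did so once every library was scaled to the same total. In spleen the values overlapped.

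Smad7 (ENSMUSG00000025880, chr18:75367529-75395935, plus strand), the inhibitory SMAD and a direct target of the pathway, did not show the split of Pmepa1. It had values of 881, 2853 and 1137 in thymus, 1013, 716 and 818 in liver and 612, 1485 and 934 in spleen, with the tissues overlapping. The highest library of both genes was thymus replicate 2. Per kilobase of exon, the level of Pmepa1 over that of Smad7 was 1.30, 1.50 and 1.64 in the thymus libraries. In liver this ratio was 0.0308, 0.158 and 0.0352, and in spleen 0.0358, 0.00465 and 0.0472. A pair of feedback genes of the same pathway thus stood at like levels in thymus and far apart in the periphery, with a ratio that cancels the scaling of each library.

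Smad4 (ENSMUSG00000024515, chr18:73639009-73703780, minus strand) encodes the SMAD shared by the TGF-beta and BMP branches. Its values were 2365, 2390 and 2783 in thymus, 634, 1389 and 1412 in liver and 1115, 1194 and 744 in spleen. The thymus libraries agreed closely and all lay above the other 6. The means were 2513 ± 234, 1145 ± 442 and 1018 ± 240 (SD, n = 3), a 2.19-fold and a 2.47-fold lower level. The log2 fold change of -1.22 (SE 0.48, adjusted p = 0.337) in liver and of -1.33 (SE 0.48, adjusted p = 0.290) in spleen did not pass the test.

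Smad3 (ENSMUSG00000032402, chr9:63646767-63757994, minus strand) and Smad2 (ENSMUSG00000024563, chr18:76241580-76310963, plus strand) are the receptor-activated SMADs of this branch. Smad3 had values of 4833, 3933 and 2684 in thymus, 2679, 3532 and 2811 in liver and 1741, 3188 and 5520 in spleen. Smad2 had 1373, 468 and 973 in thymus, 1432, 815 and 1375 in liver and 2067, 1159 and 1142 in spleen. Both overlapped between all tissues, and the spleen libraries spanned the widest range of Smad3. Per kilobase, Smad3 was above Smad2 in all 9 libraries, by 1.33 times in spleen replicate 1 up to 13.3 times in thymus replicate 2.

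Tgfbr2 (ENSMUSG00000032440, chr9:116084293-116175360, minus strand), the type II receptor that binds the ligand, was at 5560, 7094 and 5935 in thymus. It was at 5402, 5046 and 3568 in liver and at 4439, 4484 and 5487 in spleen. The highest libraries of liver and spleen reached almost to the lowest of thymus, and scaling all libraries to the same total made the groups overlap in both comparisons. The log2 fold change was -0.42 (SE 0.29, adjusted p = 0.583) in liver and -0.37 (SE 0.29, adjusted p = 0.644) in spleen, neither of which passed.

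Tgfbr1 (ENSMUSG00000007613, chr4:47353222-47414931, plus strand), the type I receptor kinase, had values of 1092, 1163 and 4232 in thymus, 1702, 1447 and 1581 in liver and 1813, 2155 and 1341 in spleen. Thymus replicate 3 stood alone, and the other 8 libraries lay within a factor of 1.97. That library also had the highest Rag1 of all 9; the part of immature thymocytes in the Tgfbr1 value was not tested. Per kilobase, Tgfbr2 exceeded Tgfbr1 in all 9 libraries, by 1.12 times in thymus replicate 3 up to 4.87 times in thymus replicate 2.

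Tgfb1 (ENSMUSG00000002603, chr7:25687002-25705077, plus strand), the ligand that T cells themselves make, was the one member whose liver and spleen values did not overlap. Of all tested genes 6.77% were lower in liver than in spleen without overlap. Its values were 323, 899 and 812 in liver and 2340, 1650 and 1248 in spleen, with 2101, 1398 and 732 in thymus across both. The liver mean was 678 ± 311 and the spleen mean 1746 ± 552 (SD, n = 3), a 2.58-fold difference. The log2 fold change in liver against spleen was -1.45 (SE 0.58, limma unadjusted p = 0.0250, adjusted p = 0.9999) and did not pass. The 5 myeloid markers, whose cells also make the ligand, summed to 3040 in spleen replicate 1, the library with the highest Tgfb1. They summed to 56.3 and 126 in spleen replicates 2 and 3, which were also above every liver library in Tgfb1, and to 1298, 25.6 and 541 in liver; the part of these cells in the Tgfb1 values was not tested.

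Read together, 9 of the 10 genes had a negative fold change in liver against thymus and 8 of 10 in spleen against thymus. Over the alternatives these counts ran from 8 to 9 and from 7 to 8, and that of liver against spleen from 6 to 8. The median log2 fold change was -0.91 in liver and -0.47 in spleen, beside 0.29 and 0.33 over all 13309 genes tested. In liver against spleen the median was -0.11 beside -0.02, with 8 of 10 negative. In edgeR's scaling the median of all genes moved to -0.03 in liver and 0.00 in spleen against thymus, and that of the 10 genes was -0.98 and -0.51. The median of the 10 less that of all genes ran from -1.44 to -0.90 over all settings in liver and from -1.07 to -0.51 in spleen.

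**Figure D3:**
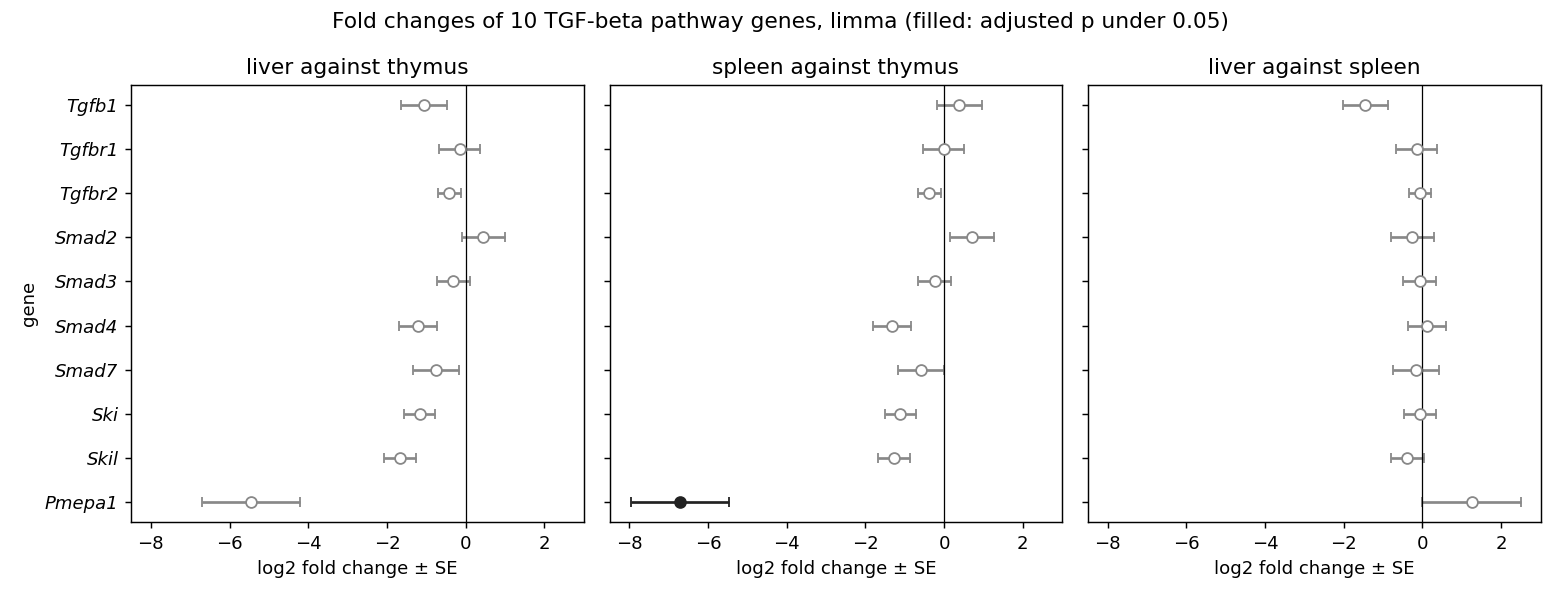
Log2 fold change (points) with its standard error (bars) of the 10 genes in liver against thymus, spleen against thymus and liver against spleen, from limma. Pmepa1 in spleen against thymus, at -6.71, is the filled point, the only one with an adjusted p under 0.05.

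Of the 10 genes limma called none in liver against thymus, where 0.323% of all genes tested were called. It called 1, Pmepa1, in spleen against thymus, where 0.398% were called, and none in liver against spleen, where 0.0150% were called. Before adjustment, 4 genes had a p under 0.05 in liver against thymus, Smad4, Ski, Skil and Pmepa1, beside 11.6% of all genes. The same 4 stood there in spleen against thymus, beside 11.7% of all genes, and Tgfb1 alone in liver against spleen, beside 3.03%. edgeR on the recovered reads called Pmepa1 in spleen against thymus and no other. DESeq2 on the same reads called Pmepa1, Ski and Skil in liver against thymus, Pmepa1 and Smad4 in spleen against thymus, and none in liver against spleen. DESeq2 called far more genes of the whole table, 494, 536 and 28 in these comparisons, beside 17, 32 and 2 by edgeR.

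Of the 10 genes 5, Tgfbr2, Smad4, Ski, Skil and Pmepa1, had all 3 liver libraries below all 3 thymus libraries, a pattern that 5.73% of the tested genes also had. In spleen against thymus there were 4, the same without Ski, beside 6.03%, and in liver against spleen 1, Tgfb1, beside 6.77%. With all libraries scaled to the same total, 3 remained in each comparison with thymus, Smad4, Skil and Pmepa1, and Tgfb1 remained in liver against spleen. None of the 10 had the opposite pattern. Since the genes were listed with these values known, nothing is read from the counts.

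The order of the 10 genes per kilobase of exon differed between the tissues, with Pmepa1 at rank 6 in thymus and last in liver and spleen, and Tgfb1 at rank 9 in thymus and liver and rank 4 in spleen, at 346 ± 110. In thymus Ski was first at 1221 ± 676 per kilobase (SD, n = 3). Tgfbr2, Smad3, Smad4, Skil and Pmepa1 followed at 757 ± 97.7, 689 ± 195, 677 ± 63.1, 632 ± 161 and 538 ± 363. Smad2 was last at 107 ± 51.6. In liver Tgfbr2 at 571 ± 119, Smad3 at 543 ± 82.8 and Ski at 484 ± 38.0 led without differing beyond their spread. Pmepa1 was last at 12.7 ± 10.6, below Tgfb1 at 134 ± 61.6. In spleen Smad3, Tgfbr2 and Ski led at 628 ± 344, 587 ± 72.4 and 506 ± 76.2, and Pmepa1 was again last at 5.37 ± 4.13.

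Over the 9 libraries, Pmepa1 was compared with the 9603 other genes with a mean of at least 100, by the Pearson correlation of log2(value + 1). These correlations describe 9 points that share the split between thymus and the other tissues. The genes most like it were Prkacb, a catalytic subunit of protein kinase A (0.976), the chemokine receptor gene Ccr8 (0.971), Galnt1, which starts O-linked glycosylation (0.958), Rasa1, a GTPase activator of RAS (0.955), Ppp1r2, an inhibitor of protein phosphatase 1 (0.949), and Arpc1b, a subunit of the actin-nucleating ARP2/3 complex (0.949). Correlation takes no account of the size of a difference. By means, Prkacb, Galnt1, Rasa1 and Arpc1b were 1.65-, 1.53-, 1.59- and 1.34-fold lower in liver than in thymus. In spleen they were 1.85-, 1.91-, 1.65- and 1.55-fold lower, and Ppp1r2 was 2.74-fold lower in liver and 3.76-fold in spleen. Pmepa1 was 42.2-fold and 100-fold lower. Of the genes most like it, limma called only Ccr8. Among the pathway genes Smad4 (0.804), Skil (0.798) and Tgfbr2 (0.769) came closest, at ranks 158, 170 and 238. Ski had 0.653, Smad7 0.473, Smad3 0.332, Tgfb1 0.069 and Tgfbr1 -0.036, and Smad2 ran the other way at -0.635.

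Some of the genes that TGF-beta is known to regulate in T cells were called, in both directions. Of 35 such genes 31 were tested, a list also written with earlier results known. In liver against thymus limma called 4, 2 higher and 2 lower, beside 0.323% of all genes, and in spleen against thymus 6, 1 higher and 5 lower, beside 0.398%. Gzmb alone was called in liver against spleen, beside 0.0150%. In the same order of comparisons edgeR called 0, 5 and 1 of the 31 and DESeq2 8, 7 and 1. Over the whole table edgeR called 17, 32 and 2 genes and DESeq2 494, 536 and 28. The median log2 fold change of the 31 was 0.12, -0.00 and 0.04 in the 3 comparisons. Since the list mixes genes that TGF-beta raises with genes that it lowers, this median cannot show a response to it or the lack of one.

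Itgae and Ccr8 fell in both comparisons with thymus. Itgae had values of 6591, 3586 and 7786 in thymus, 382, 26.6 and 13.1 in liver and 58.1, 35.0 and 22.1 in spleen. Its log2 fold change was -6.75 (SE 1.21, adjusted p = 0.0261) in liver and -7.28 (SE 1.21, adjusted p = 0.0146) in spleen. Ccr8 was at 2610, 10829 and 1799 in thymus, and its recovered reads were 0, 65 and 0 in liver and 1, 0 and 0 in spleen, with an adjusted p of 0.0435 and 0.0131. The liver values of both rested on few reads in replicate 3, with 2 of Itgae. Itgae lost its call in liver without thymus replicate 1, 2 or 3 (adjusted p = 0.0665, 0.0523 and 0.0554) or liver replicate 2 or 3 (0.128 and 0.158), and in spleen without any 1 spleen library (0.0599 to 0.0790). With edgeR the adjusted p of Itgae in liver was 0.0612, and with the libraries numbered 1 and 3 alone it was 0.296 in liver and 0.117 in spleen, so that its calls held in 10 and 13 of 17 alternatives. Ccr8, which failed the filter with the libraries numbered 1 and 3 alone, held its call in liver in 4 of 16 alternatives and in spleen in 13. It lost its call in liver under equal library totals (0.0521), no filter (0.0640), edgeR (0.0559) and with only the 6 libraries compared (0.0679). It also did in 8 of 9 fits that left out a library, all but that without thymus replicate 3 (up to 0.247), and in spleen without any 1 spleen library (0.0599 to 0.0790).

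**Figure D4:**
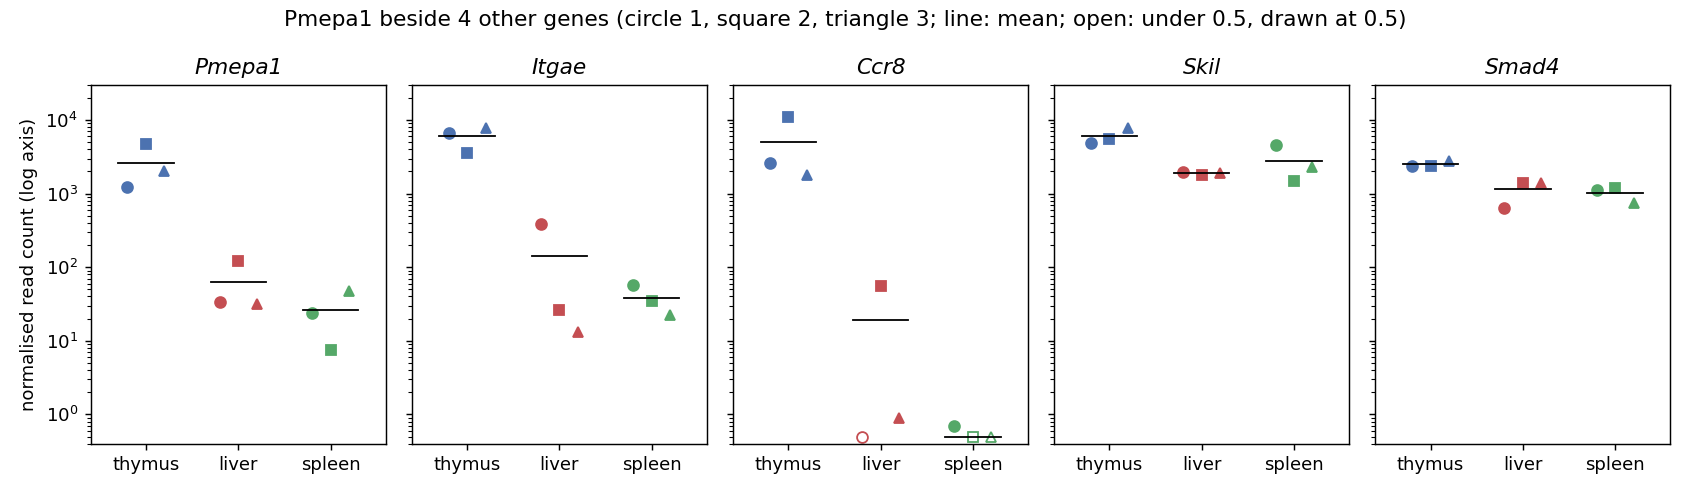
Normalised read count (log axis) of Pmepa1, Itgae, Ccr8, Skil and Smad4 in each library, with circles, squares and triangles for replicates 1, 2 and 3, a line at the mean and open symbols for values under 0.5, drawn at 0.5. Itgae lies between 3586 and 7786 in thymus and between 13.1 and 382 elsewhere, while Skil and Smad4 differ far less.

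Other genes of the list followed other patterns. Gzmb, a cytotoxic granule protease, fell in spleen against thymus by 4.50 on the log2 scale (SE 0.40, adjusted p = 6.46e-05) and was higher in liver than in spleen by 3.51 (SE 0.40, adjusted p = 0.00297), with means of 15591 in thymus, 8048 in liver and 786 in spleen. Without liver replicate 1 or 3 the adjusted p of the second was 0.0645 and 0.0507. Itga1, the CD49a chain of a collagen-binding integrin, fell in spleen by 2.52 (SE 0.34, adjusted p = 0.00334), from a mean of 8354 to 1514, and was at 3789 in liver. Gzma fell in spleen by 3.98 (SE 0.79, adjusted p = 0.0412), a call that left-out libraries ended in 7 of 9 fits, all but those without liver replicate 1 or 2 (up to 0.193), and that held in 7 of 17 alternatives.

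Ccr9 and Cxcr6, chemokine receptor genes of tissue homing, were the 2 of the list that limma called higher in a comparison with thymus. Ccr9 had values of 262, 59.0 and 693 in thymus, 3383, 4055 and 3556 in liver and 4601, 6020 and 8581 in spleen, with adjusted p-values of 0.0197 and 0.00386. Cxcr6 had means of 16265 in thymus, 39191 in liver and 27861 in spleen and passed in liver (log2 fold change 1.30, SE 0.22, adjusted p = 0.0197). Over all 17 alternatives the call in liver held in 11 for Ccr9 and 10 for Cxcr6, and that of Ccr9 in spleen in 16; edgeR gave 0.0612 for each in liver. Both lost their call in liver without liver replicate 1 (adjusted p = 0.109 and 0.121), 2 (0.0932 for each) or 3 (0.133 and 0.147), and Ccr9 in spleen without spleen replicate 3 (0.0576). Among genes whose libraries did not overlap but which did not pass, the transcriptional regulator Id3 had values of 266, 268 and 8.8 in thymus and no recovered read in liver, and Klf2, a regulator of T cell trafficking, was at 2697, 171 and 300 in thymus, 75.7, 28.3 and 55.7 in liver and 168, 63.2 and 68.3 in spleen. The inhibitory receptor gene Ctla4 had 4.5, 2.3 and 11.3 in thymus and 186, 135 and 84.1 in liver. Junb, an AP-1 subunit gene, had 4.5, 328 and 176 in thymus and 487, 398 and 791 in spleen.

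Of 18 listed genes that make, store or activate the ligand 10 were tested. Limma called 1 in liver against thymus, Mmp9, beside 0.323% of all genes, and 2 in spleen against thymus, Mmp9 and Itgb3, beside 0.398%, all of them higher outside the thymus. edgeR called 1 and 1, beside 17 and 32 genes of the whole table, and DESeq2 1 and 3, beside 494 and 536. Mmp9, a matrix protease able to activate latent TGF-beta, had 0, 0 and 2 recovered reads in the thymus libraries. Its values were 3430, 3033 and 3585 in liver and 592, 1633 and 2051 in spleen, with adjusted p-values of 2.00e-04 and 4.68e-04. Itgb3, an integrin chain that with the alpha V chain binds latent TGF-beta, had 517, 324 and 2849 in thymus, 4014, 4842 and 4494 in liver and 6793, 5131 and 5955 in spleen. It rose in spleen by 2.92 (SE 0.59, adjusted p = 0.0434), a call that ended in 8 of 9 fits that left out a library, all but that without thymus replicate 3 (up to 0.210), and that held in 4 of 17 alternatives, not with equal library totals (0.0702), no filter (0.0684) or edgeR (0.234). In liver its log2 fold change was 2.50 (SE 0.59, adjusted p = 0.111). Furin, the protease that cuts the TGF-beta precursor, was at 1596, 103 and 186 in thymus, 2530, 1878 and 3203 in liver and 2679, 4567 and 5440 in spleen, and narrowly missed the threshold in spleen (log2 fold change 3.69, SE 0.76, adjusted p = 0.0507). None of the 10 passed in liver against spleen by limma, edgeR or DESeq2, with 0 at an unadjusted p under 0.05.

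Other receptors of the family gave no call by limma in any comparison. Of 13 listed 9 were tested. In liver against thymus, spleen against thymus and liver against spleen 1, 2 and 0 had an unadjusted limma p under 0.05. Of all genes 11.6%, 11.7% and 3.03% did. Of the 9, edgeR called 0, 0 and 0 and DESeq2 1, 1 and 0, beside 494, 536 and 28 genes of the whole table by DESeq2. Tgfbr3, the co-receptor betaglycan, had values of 61.7, 1235 and 376 in thymus. Its recovered reads were 0, 16 and 0 in liver and 30, 4 and 7 in spleen. Bmpr2, the type II receptor of BMP ligands, was at 609, 509 and 303 in liver against 18.0, 239 and 267 in thymus. Acvr1b, the activin type I receptor that also uses SMAD2 and SMAD3, was at 93.9, 581 and 419 in liver against 964, 685 and 990 in spleen.

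Neither the 24 tested genes of other SMADs, partners and SMAD control nor the 9 of the non-SMAD arm gave a call by limma. For the SMAD control genes 3, 5 and 0 had an unadjusted limma p under 0.05 in the 3 comparisons. Of all genes 11.6%, 11.7% and 3.03% did. Of the SMAD control genes edgeR called 0 in each, and DESeq2 1, 0 and 0, beside 494, 536 and 28 genes of the whole table. Of the non-SMAD genes, such as Map3k7 and Traf6 that link the receptor to stress kinases, 0 had such a p. Neither edgeR nor DESeq2 called any of them. Wwp2, a ubiquitin ligase of the NEDD4 family, was at 3272, 1081 and 2245 in thymus against 525, 674 and 734 in liver. Its relative Wwp1 was at 799, 1496 and 2395 in thymus against 3227, 3541 and 2706 in spleen, the opposite order. Rnf111, the ligase that marks SMAD7 and SnoN for degradation, was at 894, 1372 and 3313 in thymus against 4091, 4029 and 3682 in liver. Smad1, a SMAD of the BMP branch, was at 125, 130 and 134 in thymus and 1359, 764 and 140 in liver, where replicate 3 came within a few units of thymus.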

How the data were processed

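RNA-seq libraries of iNKT1 cells from thymus, liver and spleen (3 per tissue) were grouped by the tissue in their labels, and table columns were matched to libraries by tissue and replicate number. The column of thymus replicate 2 has a prefix with an extra letter that the labels do not explain. The authors deposited 1 value per gene and library, a normalised signal of read counts that is not whole. Trimmomatic 0.33, TopHat2 2.1.0, HTSeq 0.6.1, edgeR and mm10 are named in the submitters' processing notes, and the scaling and annotation are not given in the sources used here. Symbols matched 13359 of 14004 gene identifiers, and places and exon lengths came from GENCODE on GRCm38, the build called mm10.

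Reads were recovered from the steps between low deposited values, and 98.2% or more of these values lay within 0.1 read of a whole number in 8 libraries but 73.3% in liver replicate 3, whose reads are approximate, as are those of spleen replicate 3. Column totals were 22363922 to 32037024. The labels mention no molecular identifiers, so reads bear on counting error only.

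Because the values are not counts, the fallback written for normalised values was used: limma-trend (limma 3.58.1, R 4.3.3) on log2(value + 1), with 13309 genes kept because 3 or more libraries reached a value of 1, 1 fit of all 9 with no block, two-sided, Benjamini-Hochberg over all genes, threshold 0.05. This scale understates changes of low genes. edgeR 4.0.16 (quasi-likelihood) and DESeq2 1.42.0 were run on the recovered reads, and edgeR called 17, 32 and 2 genes of the whole table in liver against thymus, spleen against thymus and liver against spleen. The fits and the read recovery were tested on simulated data. The simulated low values lay close to whole reads, unlike those of liver replicate 3, so the recovery in that library was not tested. Other alternatives were equal library totals, a pseudocount of 8, no filter, a replicate block, only the 6 libraries compared and leaving out each library.

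All 10 genes are named. Their fold changes are given where the 3 values of 2 tissues do not overlap or the adjusted p is under 0.05, and for Pmepa1 throughout. From each wider list the genes past the threshold are named, and up to 4 with a mean of at least 100 and no overlap, with the 6 genes most like Pmepa1. The members and lists were chosen with earlier results of these data known.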

Additional observations from a re-analysis of the deposited data

How the results depend on the processing

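Of the 10 genes, limma called 0, 1 and 0 in liver against thymus, spleen against thymus and liver against spleen. DESeq2 on the recovered reads called 3 and 2 in the comparisons of liver and spleen with thymus. In spleen against thymus the count was 0 with only the 6 libraries compared and 0 with the libraries numbered 1 and 3 alone, a setting chosen after seeing the data, and it ran from 0 to 1 when 1 library was left out. No other count moved under the other settings, and under the 17 alternatives neither a called fold change nor the median of the 10 genes changed sign, while the signs of some single genes that were not called did. Pmepa1 in spleen against thymus passed in 10 of the 17.

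The replicate block left the counts at 0, 1 and 0. The labels do not say what the replicate numbers mark, and the main fit was planned without taking them as pairs. The deviations of same-numbered libraries correlated at -0.00 to 0.09 in 9 pairs. Still, 13 of 18 comparisons were highest with the library's own number, and the libraries numbered 2 stood apart in Xist. What same-numbered libraries share was not tested. Over the whole table limma called 43, 53 and 2 genes, edgeR 17, 32 and 2, DESeq2 494, 536 and 28, and limma on only the 6 libraries compared 12, 16 and 6. The cause was not tested. Mmp9 in spleen lost its call with only the 6 libraries compared (adjusted p = 0.0756). The 3877779 reads of liver replicate 3 limit low values there, such as the 5 reads of Pmepa1, and 3 libraries per tissue limit every test.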
